A study of Mus musculus with 6 samples.

Results

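The galectins and galectin-3 binding protein were followed in microglia of SOD1 G93A and WT mice by every probe set that carries the symbol *Lgals1*, *Lgals3*, *Lgals3bp*, *Lgals8* or *Lgals9* alone. These are 7 probe sets of 5 genes, among 45037 probe sets on the arrays that include 18193 genes with a probe set of their own. SOD1 G93A mice carry many copies of a human SOD1 gene with a mutation of familial amyotrophic lateral sclerosis on a B6SJL background, the transgene being expressed in all cell types from its human promoter, and the WT mice were their littermates without it. All were males of 90 days, an early symptomatic age. Each of the 3 arrays per genotype held RNA of CD11b-positive cells sorted from the lumbar spinal cord of at least 6 pooled mice, and the error given is therefore that of pools, not of single mice. In such sorted cells, a change in the mixture of cells and a change in RNA per cell cannot be told apart.

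Galectins are lectins that bind beta-galactoside sugars on glycoproteins. They are made in the cytosol, leave the cell without a signal peptide, and bridge glycoproteins on cell surfaces and in the matrix, while inside the cell they gather on glycans that a torn lysosome exposes. Galectin-1 (*Lgals1*) is of the prototype class, galectin-3 (*Lgals3*) of the chimera class and galectin-8 and galectin-9 (*Lgals8*, *Lgals9*) of the tandem-repeat class. Galectin-3 binding protein (*Lgals3bp*) is not a galectin but a secreted, heavily glycosylated protein with a scavenger receptor cysteine-rich domain, and it is known as an interferon-inducible gene. Galectin-3 is known as a marker of phagocytic microglia and of macrophages derived from monocytes.

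In SOD1 G93A microglia *Lgals3bp* rose 5.76-fold and *Lgals1* rose 1.59-fold by 1 of its 2 probe sets, whereas *Lgals3* and *Lgals8* had nearly the same mean signal in both genotypes. *Lgals9* was 1.84-fold higher in mean and did not pass the test. Of the 7 probe sets, 2 passed at an adjusted p under 0.05, both higher, where 4.64% of all probe sets passed in either direction and 2.71% as higher. Adjusted p-values are from limma, by Benjamini-Hochberg over all 45037 probe sets. The median log2 fold change of the 7 was 0.40, beside 0.0032 over all probe sets. All values are log2 signals, and none of the 7 probe sets lay near background (a mean below 5) or near the top of the scale (a value above 13). The first principal component of the arrays (46.4% of the variance) separated the genotypes, while on the second (28.0%) the arrays numbered 1 of both genotypes lay away from the others. Without those 2 arrays *Lgals3bp* had a log2 fold change of 2.97 (adjusted p = 4.56e-05 from limma), *Lgals9* passed as well, and *Lgals1* had 0.51 (adjusted p = 0.0346) by the probe set that had passed.

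**Figure D1:**
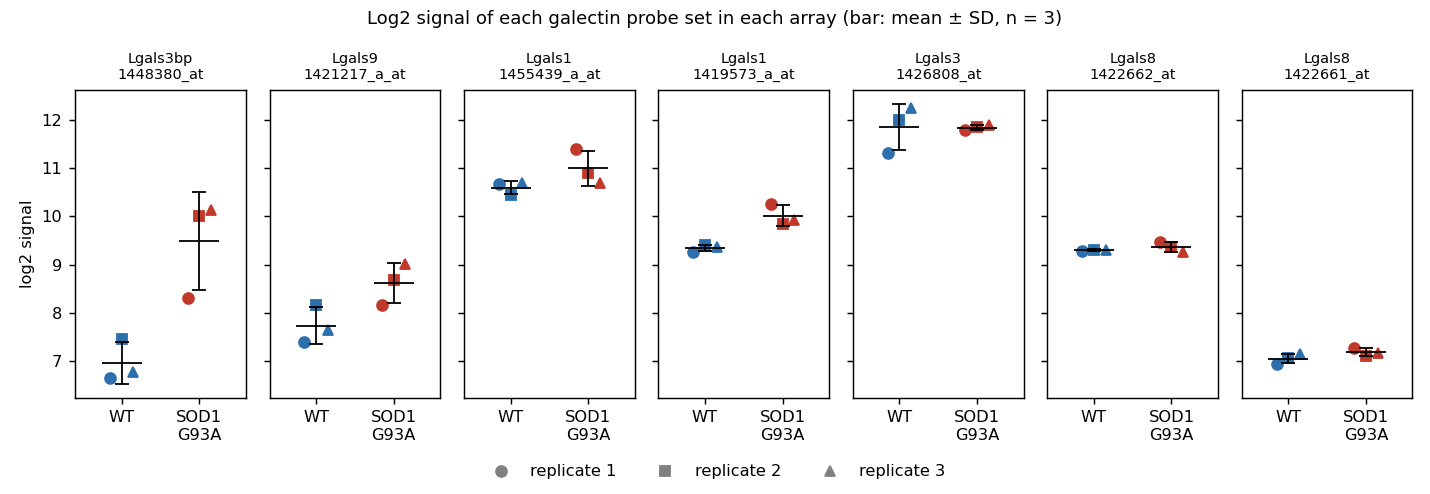
Log2 signal of each of the 7 probe sets (vertical axis) in the WT arrays (blue) and SOD1 G93A arrays (red), with the marker shape giving the replicate number and the black bars the mean ± SD of 3 arrays. *Lgals3bp* lies between 6.66 and 7.46 in WT and between 8.31 and 10.14 in SOD1 G93A arrays, while for *Lgals3* the SOD1 G93A arrays lie within the range of the WT arrays.

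The windows around the annotated transcription starts are shown for *Lgals3bp* and *Lgals9*, whose means differed most between genotypes, and for *Lgals3*, whose mean did not. They run from 250 bases before to 50 bases after the start in RefSeq on GRCm38.p6, at chr11:118401910-118402209 (minus strand), chr11:78984875-78985174 (minus strand) and chr14:47373610-47373909 (plus strand), each written 5′ to 3′ along its gene. Capitals mark matches on either strand to a pair of GAAA blocks with 2 bases of any kind between them, the core of the interferon-stimulated response element, or to TTCNNNGAA, the gamma-activated site. A wider form with 3 bases between the GAAA blocks is marked too and was added after the sequence of *Lgals3bp* had been seen.
Lgals3bp: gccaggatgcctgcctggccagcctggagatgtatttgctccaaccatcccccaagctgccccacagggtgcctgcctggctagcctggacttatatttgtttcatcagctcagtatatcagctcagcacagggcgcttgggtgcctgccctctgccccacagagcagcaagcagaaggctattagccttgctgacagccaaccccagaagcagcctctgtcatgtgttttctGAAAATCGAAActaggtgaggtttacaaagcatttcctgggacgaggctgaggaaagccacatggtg
Lgals9: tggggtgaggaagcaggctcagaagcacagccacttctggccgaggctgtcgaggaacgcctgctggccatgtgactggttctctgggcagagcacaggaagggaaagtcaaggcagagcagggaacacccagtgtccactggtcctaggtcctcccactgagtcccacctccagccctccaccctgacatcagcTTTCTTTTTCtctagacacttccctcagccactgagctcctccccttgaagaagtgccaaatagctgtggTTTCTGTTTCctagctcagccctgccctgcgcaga
Lgals3: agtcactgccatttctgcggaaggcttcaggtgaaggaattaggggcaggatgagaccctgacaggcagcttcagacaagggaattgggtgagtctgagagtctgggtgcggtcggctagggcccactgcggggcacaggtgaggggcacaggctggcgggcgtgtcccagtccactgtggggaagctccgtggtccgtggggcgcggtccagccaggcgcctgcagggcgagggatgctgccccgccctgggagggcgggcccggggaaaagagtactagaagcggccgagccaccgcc
The window of *Lgals9* held the GAAA pair with 2 bases between in 2 places, both on the opposite strand, at bases -55 to -46 and 15 to 24 counted from the start as 0. Of 32851 windows of this length, 3.44% held that motif. The window of *Lgals3bp* held the wider form once, at bases -17 to -7, as did 2.75% of the windows. TTCNNNGAA, which 8.30% of the windows held, had no match in the windows of *Lgals3bp*, *Lgals9*, *Lgals3* and *Lgals8*, and *Lgals3* and *Lgals8* held none of the 3 motifs. The window of *Lgals8*, at chr13:12461689-12461988 (minus strand), lies inside the gene, and the 5′ end of the gene at base 12464977 was not searched. A match describes letters in the window and is not evidence of binding.

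*Lgals3bp* lies at chr11:118392747-118401959 (GRCm38.p6), on the same chromosome as *Lgals9* at chr11:78962979-78984924. *Lgals3bp* had log2 signals of 6.66, 7.46 and 6.77 in WT replicates 1, 2 and 3, and of 8.31, 10.01 and 10.14 in SOD1 G93A replicates 1, 2 and 3. The genotypes did not overlap, with 0.85 between the highest WT and the lowest SOD1 G93A array, and SOD1 G93A replicate 1 stood well below its group. The mean went from 6.96 ± 0.43 (SD, n = 3) to 9.49 ± 1.02 (SD, n = 3), a log2 fold change of 2.53 (standard error 0.44, 95% interval 1.52 to 3.53, adjusted p = 0.0185 from limma). As a fold, the interval runs from 2.87 to 11.6. Without SOD1 G93A replicate 1 the log2 fold change was 3.12 (adjusted p = 0.000574). The call was lost without SOD1 G93A replicate 2 (adjusted p = 0.078), without SOD1 G93A replicate 3 (adjusted p = 0.0754) and without WT replicate 3 (adjusted p = 0.0824), and the adjusted p ranged from 4.56e-05 to 0.368 over 17 alternatives.

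Of 14063 genes with a mean log2 signal of at least 5, the 3 whose profile over the 6 arrays lay closest to that of *Lgals3bp* were *Axl*, *Gas2l3* and *Pld3*. Likeness was the root mean square difference of the profiles, each centred on its own mean, and it was 0.231, 0.318 and 0.373 on the log2 scale. *Axl* encodes a receptor tyrosine kinase for phosphatidylserine bridging ligands, and *Pld3* a lysosomal exonuclease. *Axl* had 8.70, 9.86 and 10.25 in the SOD1 G93A arrays and 6.82, 7.12 and 6.79 in the WT arrays. SOD1 G93A replicate 1 was the lowest of its group and WT replicate 2 the highest of its own, an order that the choice by likeness favours. *Gas2l3* and *Pld3* had log2 fold changes of 2.31 and 2.14. The arrays and their spread are shared by all these genes.

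*Lgals9*, which encodes the ligand of the receptor TIM-3, had log2 signals of 7.40, 8.16 and 7.64 in the WT arrays and of 8.17, 8.68 and 9.0 in the SOD1 G93A arrays, each in the order of the replicates. WT replicate 2 reached the level of SOD1 G93A replicate 1, and the genotypes were separated by only 0.0040. The mean went from 7.74 ± 0.39 (SD, n = 3) to 8.62 ± 0.42 (SD, n = 3), a log2 fold change of 0.88 (standard error 0.24, 95% interval 0.33 to 1.43), and with an adjusted p = 0.0790 from limma it did not pass. It passed when SOD1 G93A replicate 1 was left out (1.11, adjusted p = 0.0317) and when both arrays numbered 1 were left out (0.94, adjusted p = 0.0123), and the adjusted p ranged from 0.00823 to 0.623 over 17 alternatives. At the paper's fold threshold of 1.75 with the unadjusted p of limma under 0.05, *Lgals9* and *Lgals3bp* were past it. These are 2 of the 7 probe sets, beside 2.40% of all probe sets. The paper names not limma but a test with a separate variance for each genotype. By that test the standard error of *Lgals9* was 0.331, larger than the 0.24 of limma. Being past the threshold here is therefore not the same as meeting the paper's own criterion.

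*Lgals1* encodes galectin-1, a lectin that dampens T cell and myeloid responses, and it was measured by a pair of probe sets. The gene lies at chr15:78926725-78930465 (GRCm38.p6). By the probe set of lower signal it had 9.27, 9.40 and 9.36 in the WT arrays and 10.26, 9.85 and 9.93 in the SOD1 G93A arrays. All SOD1 G93A arrays lay above all WT arrays, with 0.44 between the genotypes. The log2 fold change was 0.67 (standard error 0.13, 95% interval 0.37 to 0.96, adjusted p = 0.0262 from limma). By that of higher signal it had 10.67, 10.44 and 10.69 in the WT arrays and 11.40, 10.91 and 10.69 in the SOD1 G93A arrays. Here SOD1 G93A replicate 3 was level with the highest WT array, and the log2 fold change of 0.40 (standard error 0.18, 95% interval -0.0059 to 0.80, adjusted p = 0.264) did not pass.

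Both probe sets of *Lgals1* thus had a higher mean in SOD1 G93A microglia, and both were highest in SOD1 G93A replicate 1, the array in which *Lgals3bp* and *Lgals9* were lowest of their group. The mean of both probe sets gave 0.53 (adjusted p = 0.051 over genes). RefSeq lists a pseudogene of *Lgals1*, and whether the probes also detect it was not tested. The call of the lower-signal probe set was lost without SOD1 G93A replicate 2 (adjusted p = 0.0555), SOD1 G93A replicate 3 (0.0817), WT replicate 2 (0.0773) or WT replicate 3 (0.0917), with the log2 fold change between 0.68 and 0.75 in these fits.

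*Lgals3*, which encodes galectin-3 and lies at chr14:47373860-47386167 (GRCm38.p6), had log2 signals of 11.33, 12.003 and 12.25 in the WT arrays and of 11.79, 11.85 and 11.89 in the SOD1 G93A arrays. The SOD1 G93A arrays lay close together, inside the range of the WT arrays. The mean was 11.86 ± 0.48 (SD, n = 3) in WT and 11.85 ± 0.053 (SD, n = 3) in SOD1 G93A arrays, and the log2 fold change was -0.016 (standard error 0.21, 95% interval -0.49 to 0.46, adjusted p = 0.980 from limma). The limma interval allows a fold between 0.710 and 1.38 and reaches neither a rise of 1.75-fold nor a fall of that size. It rests on a variance shared by both genotypes, although the SD was much larger in WT than in SOD1 G93A arrays. With a separate variance for each genotype the standard error was 0.279. A 95% interval from that fit is wider, since it rests on fewer degrees of freedom, and it reaches past 1.75-fold in both directions. A change of that size is therefore not excluded once the variances are allowed to differ. The direction turned with the array left out, from -0.28 without WT replicate 1 to 0.18 without WT replicate 3, and 0 of 17 alternatives passed.

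CD11b, the antigen of the sort, is also carried by monocytes and neutrophils, and the markers of these cells differed between the arrays. The summed linear signal of 11 monocyte markers was 18200, 32220 and 31250 in WT replicates 1, 2 and 3 and 10220, 16500 and 18000 in SOD1 G93A replicates 1, 2 and 3. In both genotypes, replicate 1 was lowest in these markers, as it was in *Lgals3*. Of the 11, 5 were lower in SOD1 G93A arrays and 0 higher, where 2.08% of all genes were lower. The largest difference was that of the chemokine receptor gene *Ccr2* with -1.22 (adjusted p = 0.00391). The sum of 13 neutrophil markers ranged from 72250 to 120700 in WT and from 56200 to 83800 in SOD1 G93A arrays, with 3 markers lower and 0 higher. Of the 13, 6 had a value above 13 in some array and carried between 92.3% and 95.1% of the sum. Among these was *S100a8*, with mean log2 signals of 14.49 in WT and 14.14 in SOD1 G93A arrays, close to the array maxima of 14.51 to 14.59. The other 7, a sum chosen after seeing the data, ranged from 4574 to 9283 in WT and from 2827 to 4644 in SOD1 G93A arrays, again lowest in replicate 1 of each genotype. The monocyte marker *Ccr2* was not at background, with 8.98 in WT and 7.75 in SOD1 G93A arrays. Their part in the values of *Lgals3* was not tested.

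**Figure D2:**
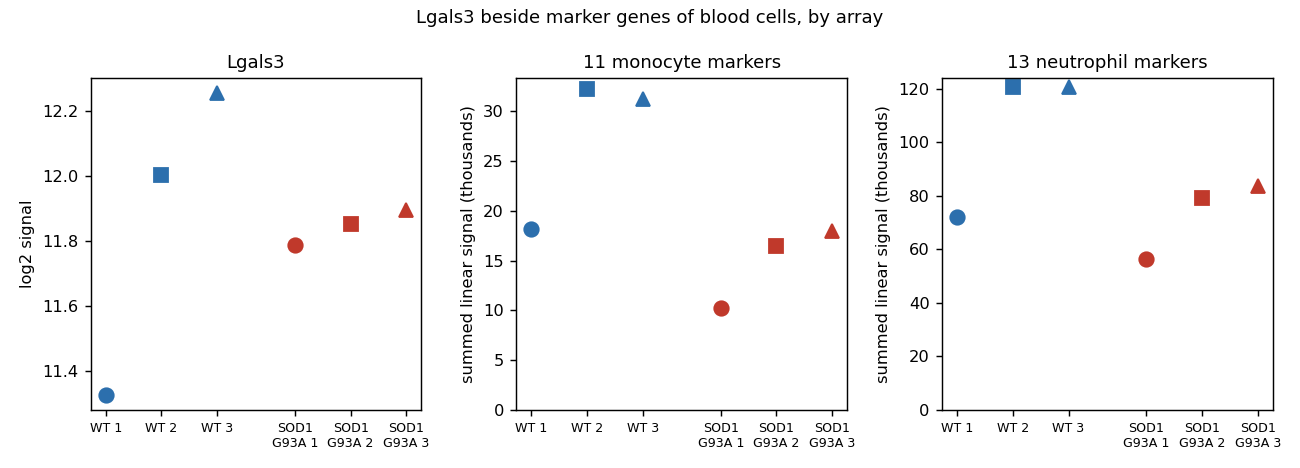
*Lgals3* (log2 signal) and the summed linear signals of 11 monocyte and 13 neutrophil markers (axis from 0) in each array, with WT in blue and SOD1 G93A in red. WT replicate 1 is the lowest WT array in all 3 panels, with an *Lgals3* signal of 11.33, and SOD1 G93A replicate 1 the lowest SOD1 G93A array.

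*Lgals8*, which encodes a galectin that marks damaged endosomes and lysosomes and lies at chr13:12439402-12464977 (GRCm38.p6), passed by neither probe set. By that of higher signal it had 9.28, 9.31 and 9.31 in the WT arrays and 9.47, 9.37 and 9.27 in the SOD1 G93A arrays, a log2 fold change of 0.072 (95% interval -0.16 to 0.31, adjusted p = 0.774 from limma). By that of lower signal it had 6.94, 7.06 and 7.14 in the WT arrays and 7.28, 7.11 and 7.18 in the SOD1 G93A arrays, a log2 fold change of 0.14 (95% interval -0.11 to 0.38, adjusted p = 0.553). The genotypes overlapped by both, and the intervals reach at most a 1.30-fold difference. The groups did not overlap in 4 of the 7 probe sets, those of *Lgals3bp*, *Lgals9* and *Lgals1*, where SOD1 G93A arrays lay above WT arrays in 13.4% of all probe sets.

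**Figure D3:**
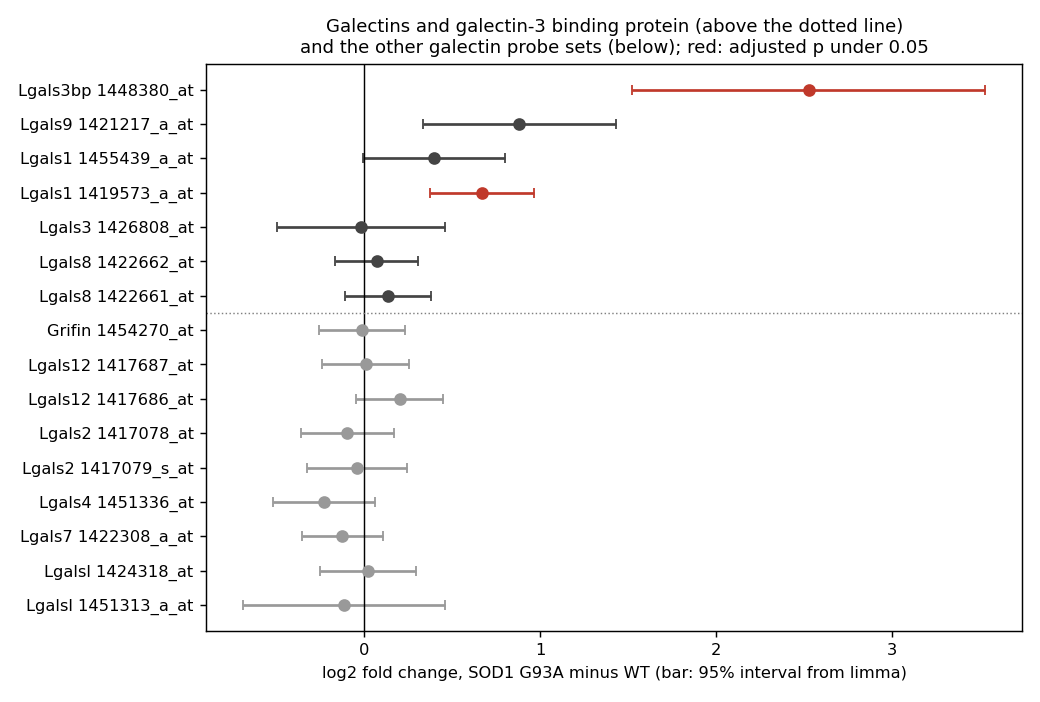
Log2 fold change (SOD1 G93A minus WT, horizontal axis) with its 95% interval from limma for the 7 probe sets of galectins and galectin-3 binding protein and, under the dotted line, for 9 probe sets of other galectins, with red marking an adjusted p under 0.05. *Lgals3bp* (2.53) lies apart from all others, and the 9 other probe sets lie between -0.23 and 0.20.

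Whether a member changed more than another was asked with the difference between their highest-signal probe sets within each array. Of 10 pairs, 5 reached an exact two-sided permutation p of 0.1, the smallest that 3 arrays against 3 allow, and the smallest p adjusted over the pairs was 0.2. The rise of *Lgals3bp* exceeded the change of *Lgals3* by 2.54, that of *Lgals8* by 2.45 and that of *Lgals9* by 1.64 on the log2 scale, each without overlap between genotypes (exact permutation test, p = 0.1, adjusted p = 0.2). Against *Lgals1* the genotypes overlapped, the change of *Lgals1* minus that of *Lgals3bp* being -2.13 (exact permutation test, p = 0.2, adjusted p = 0.286). The distance between *Lgals3bp* and *Lgals9* varied little in WT arrays (SD 0.085, n = 3) and more in SOD1 G93A arrays (SD 0.638, n = 3). Between *Lgals3* and *Lgals8* the changes differed by -0.088 (exact permutation test, p = 0.8).

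The remaining galectins on the arrays did not pass. *Lgals2*, *Lgals4*, *Lgals7*, *Lgals12*, the galectin-like *Lgalsl* and the lens protein gene *Grifin* had 9 probe sets, of which 0 passed in limma and 0 had an unadjusted p under 0.05. Their log2 fold changes ran from -0.23 for *Lgals4* to 0.20 for 1 probe set of *Lgals12* with a signal close to background, and their adjusted p from 0.357 to 0.976. *Lgals4* and *Lgals7* are known as galectins of epithelia and *Lgals12* as one of fat cells.

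Of 29 glycoproteins that galectins are known to bind at the cell surface, in the lysosome or in the endoplasmic reticulum, 9 rose and 2 fell in SOD1 G93A microglia. By their highest-signal probe sets, 3.53% of all genes were higher and 2.08% were lower, and the median of the 29 was -0.020. *Trem2*, a lipid receptor of microglia that galectin-3 binds, rose by 1.28 (adjusted p = 0.0187). *Lag3*, an immune checkpoint receptor that also binds galectin-3, rose by 1.28 (adjusted p = 0.00366), and *Alcam*, an adhesion molecule that binds galectin-8, by 1.10. *Spn*, which encodes the leukocyte sialoglycoprotein CD43, a ligand of galectin-1, fell by 1.01 (adjusted p = 0.0224). Without SOD1 G93A replicates 1, 2 and 3 in turn 8, 3 and 2 of the 29 rose, and without WT replicates 1, 2 and 3 in turn 5, 3 and 2. The number that fell was then 0 or 1, and calls over all probe sets also fell, to between 479 and 655 in the 4 fits with 2 or 3 risen receptors.

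Other receptors, named here after their values were seen, are those paired with the members described above. *Havcr2*, which encodes TIM-3, and *P4hb*, a protein disulphide isomerase that galectin-9 binds at the cell surface, had log2 fold changes of 0.48 (adjusted p = 0.0454) and 0.66 (adjusted p = 0.0485). *Nrp1*, a co-receptor that binds galectin-1, had 0.66 (adjusted p = 0.037). The phagocytic receptor gene *Mertk* had -0.033 (adjusted p = 0.939) and the endotoxin receptor gene *Tlr4* -0.16 (adjusted p = 0.441), both of products that galectin-3 binds, and neither passed. *Ptprc*, which encodes the glycoprotein CD45, had 0.016 (adjusted p = 0.976).

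Enzymes that build or trim the sugars galectins bind were mostly not called, with 1 of 29 higher and 0 lower. The 1 was *Glb1*, the lysosomal beta-galactosidase gene, which rose from 7.06 ± 0.11 (SD, n = 3) to 8.52 ± 0.12 (SD, n = 3), a 2.76-fold change (adjusted p = 0.000762 from limma). Of 31 genes of the response to damaged lysosomes, 1 rose and 0 fell. This was *Sqstm1*, which encodes the autophagy receptor p62, with a 2.28-fold change (log2 fold change 1.19, adjusted p = 0.00543). Of 13 measured proteins with the scavenger receptor cysteine-rich domain of galectin-3 binding protein, the 1 that rose was *Cd5*, by 0.94 (adjusted p = 0.0155). Its mean log2 signal was 5.005 in WT arrays, close to background, and 5.95 in SOD1 G93A arrays. No gene of this list rose without SOD1 G93A replicate 2, SOD1 G93A replicate 3, WT replicate 2 or WT replicate 3. A minimum mean signal of 7 leaves *Cd5* out before any test, and no other gene of the list rose in that fit. The medians of the 3 lists were 0.10, 0.035 and 0.051, beside 0.022 over all genes, and 1 of 29 or 1 of 31 higher is near the 3.53% of all genes that were higher.

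Interferon response genes and genes of the disease-associated microglial state were set beside the members, since *Lgals3bp* and *Lgals9* are known to respond to interferon and *Lgals3* is counted among genes of that state. Of 33 interferon response genes 13 rose and 0 fell, with a median log2 fold change of 0.52. Over all genes 3.53% were higher and 2.08% lower, and the median was 0.022. *Ifit2* rose by 1.80, *Bst2* by 1.51, *Ifit3* by 1.45 and *Mx1* by 1.34, all genes of antiviral proteins (adjusted p between 0.00479 and 0.0125). Without SOD1 G93A replicate 2 or 3 the number of interferon genes that rose was 7 or 8. Of 30 genes of the disease-associated state 23 rose and 0 fell, with a median of 1.26, *Trem2* being in this list too. It was led by the protease inhibitor gene *Cst7* (20.1-fold), *Igf1* (12.6-fold), *Ch25h* (11.1-fold) and *Lpl* (7.95-fold). With 23 of 30 genes of that list higher, *Lgals3* had a log2 fold change of -0.016. The paper's Discussion, in contrast, lists *Lgals3* among genes up-regulated in its microglia. The deposited values did not show this rise, and the source of the difference was not tested.

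By array, the median of the interferon genes relative to their WT means was 0.43, 0.59 and 0.57 in SOD1 G93A replicates 1, 2 and 3 and -0.090, 0.013 and 0.071 in the WT arrays. For the disease-associated genes it was 0.95, 1.28 and 1.40 in SOD1 G93A and -0.11, 0.11 and 0.0069 in WT arrays. SOD1 G93A replicate 1 was thus lowest of its group in both lists, as in *Lgals3bp* and *Lgals9*. WT replicate 2, the highest WT array for both genes, was also the highest of WT for the disease-associated genes but not for the interferon genes. The lists and the members share the 6 arrays.

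**Figure D4:**
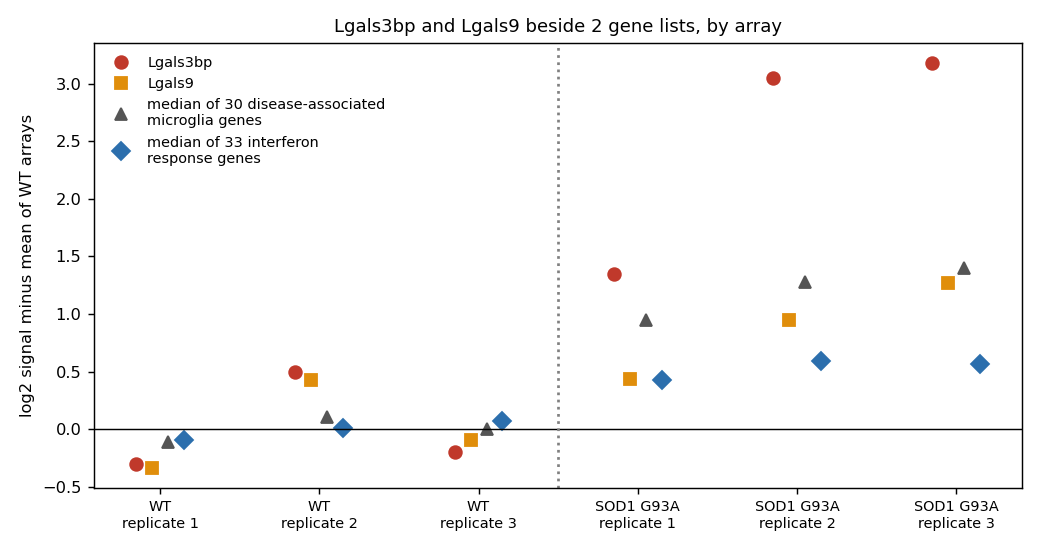
Log2 signal minus the mean of the WT arrays (vertical axis) for *Lgals3bp*, *Lgals9* and the medians of 30 disease-associated microglia genes and 33 interferon response genes in each of the 6 arrays. In SOD1 G93A arrays all 4 are lowest in replicate 1, where the interferon median is 0.43, and above their WT mean throughout.

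The identity of the cells was checked with marker genes. *Itgam*, the gene of CD11b, had a log2 fold change of -0.025 (adjusted p = 0.956), *Aif1* 0.34 (0.137), *P2ry12* -0.29 (0.339) and *Tmem119* -0.084 (0.838), all measured well above background. Of the 13 microglia markers 1 was higher, the Fc receptor-like gene *Fcrls* with 1.07 (adjusted p = 0.00933), and 1 lower, the transcription factor gene *Sall1* with -0.83 (adjusted p = 0.014). The summed signal of the 13 ranged from 73210 to 79800 in WT and from 78180 to 86270 in SOD1 G93A arrays. Sums of astrocyte, oligodendrocyte and neurone markers were lower in all SOD1 G93A than in all WT arrays, with 4 of 11, 3 of 11 and 4 of 12 markers lower and 0 higher. Border macrophage markers were lower too, with sums of 13400 to 15470 in WT and 7555 to 9210 in SOD1 G93A arrays, 5 of 13 markers lower and 1 higher. Beside these counts, 2.08% of all genes were lower and 3.53% higher. The part of these cells in the values of the 5 genes was not tested. *Sod1* had a log2 fold change of 0.0074 (adjusted p = 0.988) by its probe set of highest signal, and 1 of its 4 other probe sets passed, with 0.59 (adjusted p = 0.0335). These probe sets were designed on mouse sequence and are no check of the human transgene. Whether any of them also detects it was not tested.

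The 3′ minus 5′ difference of the *Gapdh* control probes, larger where RNA copies are shorter, was 4.12 in SOD1 G93A and 4.89 in WT arrays (exact two-sided permutation test, p = 0.1, n = 3). With it as a covariate the log2 fold change of *Lgals3bp* was 1.45 (adjusted p = 0.196), that of *Lgals9* 0.31 (adjusted p = 0.623) and those of *Lgals1* 0.81 and 0.83 (adjusted p = 0.124 and 0.112), so that none of the 7 probe sets passed. Of the galectin-binding glycoproteins and interferon genes 0 passed in that fit, and of the disease-associated genes 10. The *Gapdh* difference did not overlap between genotypes, with 3.47 to 4.63 in SOD1 G93A and 4.79 to 5.01 in WT arrays. Its part and that of genotype therefore cannot be told apart with these arrays. The same difference of the beta-actin control probes was 2.67 in SOD1 G93A and 3.42 in WT arrays, with overlap (exact two-sided permutation test, p = 0.2).

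**Figure D5:**
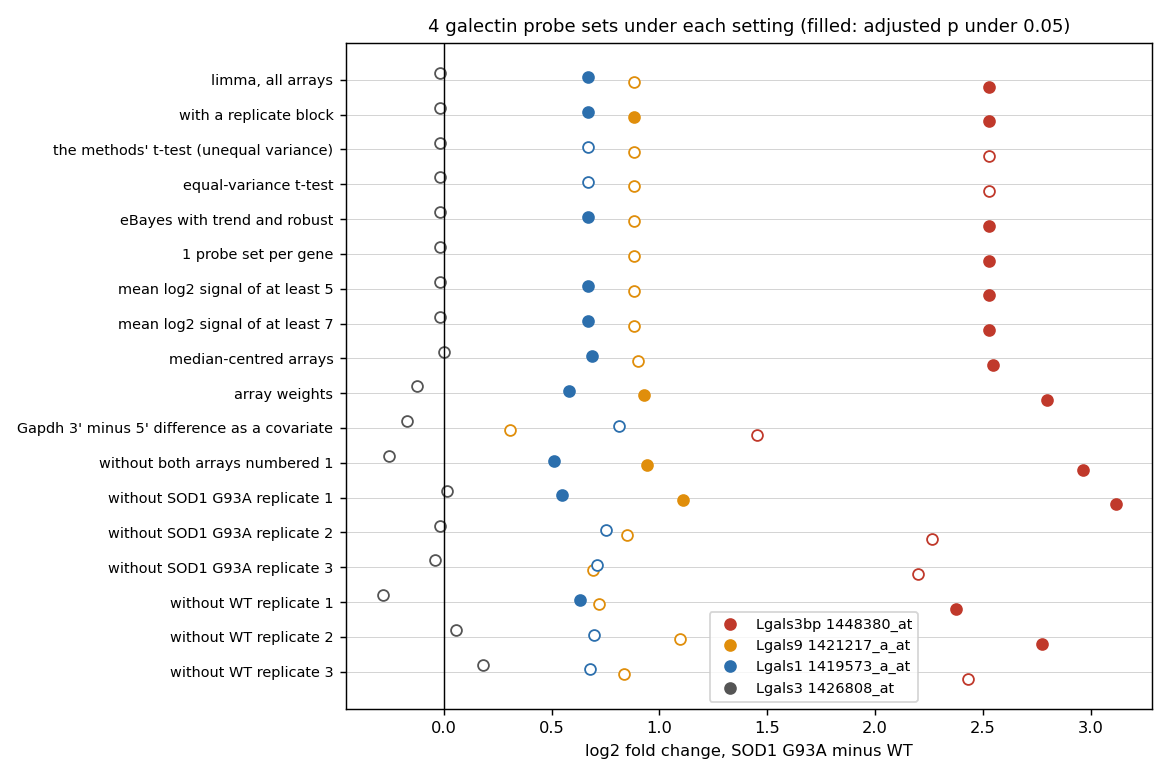
Log2 fold change (SOD1 G93A minus WT, horizontal axis) of a probe set each of *Lgals3bp*, *Lgals9*, *Lgals1* and *Lgals3* under each setting (vertical axis), filled where the adjusted p was under 0.05. *Lgals3bp* stays between 1.45 and 3.12, *Lgals9* between 0.31 and 1.11, and *Lgals3* lies on both sides of 0.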

How the data were processed

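Affymetrix mouse arrays were hybridised with RNA of sorted microglia, 3 for each genotype. The authors deposited 1 log2 signal for each probe set and array. RMA and Partek are named in the submitters' processing notes, without versions, whereas the paper's methods name MAS. Array medians lay between 5.93 and 5.97. The labels describe a standard protocol and the paper a double amplification of RNA.

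After 64 control probe sets of the manufacturer had been left out, genotype was tested on the other 45037 with limma 3.58.1 in R 4.3.3 (functions lmFit and eBayes). Benjamini-Hochberg adjustment ran over all 45037. Of these 34945 have 1 gene symbol, 932 several and 9160 none, and genes of the lists are read by the probe set of highest mean signal among those with 1 symbol (18193 genes). Members and lists were chosen with earlier results of these data known. The genes named are all member probe sets, other galectins, up to 4 called genes of each list with the largest change, 4 microglia markers, and the 3 profiles most like a called member. Receptors so marked in the text, and markers of other cells or of microglia beyond those 4, were named after their values were seen. Lists were not tested as sets. The fit was tested on simulated data. Precision is limited by the number of arrays, which have no depth in counts. Motifs were searched in RefSeq windows of 4 of the 5 genes. The methods' t-test, other eBayes settings, signal filters, centring, array weights, a replicate block, a *Gapdh* covariate and left-out arrays were the alternatives. Nothing states that arrays share mice, so p-values measure the spread between pools. Python 3.11.15, pandas 2.3.3 and matplotlib 3.10.9 served for summaries and figures.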

Additional observations from a re-analysis of the deposited data

How the results depend on the processing

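*Lgals3bp* was higher in SOD1 G93A in all 17 alternatives run for its probe set, with a log2 fold change from 1.45 to 3.12, and passed in 11. the lower-signal probe set of *Lgals1* was higher in all 16 (0.51 to 0.81) and passed in 9, *Lgals9* was higher in all 17 and passed in 4, and the probe sets of *Lgals8* and the higher-signal one of *Lgals1* passed in 0. *Lgals3* turned to a positive value with median-centred arrays (0.0020), without SOD1 G93A replicate 1 (0.012), without WT replicate 2 (0.055) and without WT replicate 3 (0.18), and left-out arrays gave -0.28 to 0.18.

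Of the 7 probe sets, 2 passed, and of all 2089. With the methods' t-test 0 of the 7 and 0 of all passed, although 2 of the 7 had an unadjusted p under 0.05, and with the equal-variance t-test 0 and 13. With 1 probe set per gene, where 5 member probe sets were tested, 1 and 1342 passed. With the *Gapdh* covariate 0 and 129 passed, with array weights 3 and 3549, and without both arrays numbered 1 3 and 3796. At the paper's fold threshold with the unadjusted p of limma, 2 and 1081 passed. When 1 array was left out, between 0 and 3 of the 7 and between 479 and 2195 of all passed. With 0 of the 7 passing, the array left out was SOD1 G93A replicate 2 or 3 or WT replicate 3. With as many arrays in the fit, 3 and 1914 passed without SOD1 G93A replicate 1, and 2 and 2195 without WT replicate 1. The cause of these differences was not tested. With a replicate block 3 and 4519 passed, *Lgals9* being added (adjusted p = 0.00823), and 3 scavenger receptor cysteine-rich proteins rose. Same-numbered arrays had correlations of their deviations from the group means of 0.444, 0.24 and 0.029, and differently numbered arrays from -0.49 to 0.4. The paper states that litters were matched between groups, without saying which arrays this joins. The numbers were therefore not taken to pair the arrays, and whether the pools were matched was not tested. The count of higher genes differed by over 1.5 times in 11 of 17 alternatives for scavenger receptor cysteine-rich proteins, 8 for galectin-binding glycoproteins, 6 for interferon genes, 3 for disease-associated genes, 3 for damaged-lysosome genes and 2 for glycan enzymes. That of lower galectin-binding glycoproteins did so in 12, of lower scavenger receptor cysteine-rich proteins in 3 and of lower glycan enzymes in 1.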
